A study of Mus musculus with 20 samples.

Results

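Where histone marks lie together in the wild-type medial ganglionic eminence (MGE) of the mouse embryo is described here from the peak lists of 4 chromatin immunoprecipitation libraries, 1 each for H3K4me3, H3K27ac, H3K4me1 and H3K27me3. They are 4 of the 20 libraries of the series and 4 of the 10 with a peak list. All 4 came from micro-dissected MGE of wild-type C57BL/6 embryos at embryonic day 13.5, with nuclei isolated by sonication. The series as a whole compared wild-type and conditional Nkx2-1 mutant MGE and mapped the homeodomain factors NKX2-1 and LHX6 in basal ganglia of wild-type CD-1 embryos. No mutant library enters the results below. The factor lists enter near the end, as separate libraries of another strain and a wider dissection. Every base of chromosomes 1 to 19 covered by at least 1 mark was assigned to exactly 1 of the 15 combinations that 4 marks allow. The same was done for 44018 promoter windows, each 2.5 kb either side of a transcription start site (TSS) of a protein-coding transcript, which belong to 21275 genes. Each mark has 1 library, so no length or count has a replicate error, and the intervals given on shares cover counting error only.

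H3K4me3 marks promoters, H3K4me1 marks enhancers and the flanks of promoters, and H3K27ac marks promoters and enhancers in use. H3K27me3 is laid down by a Polycomb repressive complex and covers developmental genes that are kept silent. H3K27 cannot be acetylated and methylated on the same histone tail. Promoters with H3K4me3 and H3K27me3 together are called bivalent and are known from stem cells and embryos, where they mark fate genes poised for use. The MGE is the ventral forebrain zone that makes cortical interneurons, striatal interneurons and globus pallidus neurons. It holds dividing progenitors beside young neurons, so marks listed on the same base may lie in different cells or on different alleles, and these cannot be told apart in bulk tissue. Likewise a mark in few cells and a weak mark in many cells cannot be told apart.

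The depth of the lists differed. After duplicate tags were removed, the H3K4me3 library held 28.8 M tags (M, mega), the H3K27ac library 57.3 M, the H3K4me1 library 59.7 M and the H3K27me3 library 50.2 M. H3K4me3 had its own input library, and the other marks shared 1 input. H3K4me3 covered 45.6 Mb in 33734 regions, H3K27ac 56.1 Mb in 61478, H3K4me1 75.8 Mb in 97936 and H3K27me3 25.4 Mb in 20931. A combination here is therefore a set of called regions, and the length of each depends on how much of each mark was called.

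Promoters of 6 classes are shown as DNA first, namely the 4 commonest classes and the next 2 that hold H3K27me3. In each class the promoter printed is that of a listed gene with 1 TSS, chosen as nearest to the class median in the ratio of observed to expected CpG within 500 bases of the TSS. Each line gives the 300 bases before the TSS, read 5′ to 3′ on the gene's strand from the mm9 (NCBIM37) genome and lying outside annotated exons. Capitals mark the CG dinucleotides, the motif searched, which reads the same on both strands. At least 1 CG lies in the 300 bases before 95.6% of all 44018 TSSs, so its presence is no mark of a class, whereas its number differs.
Calb1 (chr4:15808111-15808410, plus strand): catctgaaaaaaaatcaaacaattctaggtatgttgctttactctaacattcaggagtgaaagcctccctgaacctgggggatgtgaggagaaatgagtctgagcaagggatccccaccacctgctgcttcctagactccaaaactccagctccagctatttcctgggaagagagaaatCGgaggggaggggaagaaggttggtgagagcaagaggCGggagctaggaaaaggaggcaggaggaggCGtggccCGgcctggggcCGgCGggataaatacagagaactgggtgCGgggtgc
Rps21 (chr2:179991782-179992081, plus strand): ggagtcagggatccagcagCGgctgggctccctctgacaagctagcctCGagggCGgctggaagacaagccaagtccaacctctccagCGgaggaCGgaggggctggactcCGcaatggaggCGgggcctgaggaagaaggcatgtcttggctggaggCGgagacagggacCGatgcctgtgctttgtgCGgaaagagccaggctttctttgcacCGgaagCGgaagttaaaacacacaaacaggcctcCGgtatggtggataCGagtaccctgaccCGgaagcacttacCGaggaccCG
Tbx20 (chr9:24578747-24579046, minus strand): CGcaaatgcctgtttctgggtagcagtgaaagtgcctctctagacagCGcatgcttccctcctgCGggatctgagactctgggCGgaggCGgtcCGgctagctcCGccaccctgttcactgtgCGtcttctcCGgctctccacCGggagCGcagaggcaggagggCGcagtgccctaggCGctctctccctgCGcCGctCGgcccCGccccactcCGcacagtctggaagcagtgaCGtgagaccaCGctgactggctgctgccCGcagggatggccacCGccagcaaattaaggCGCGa
Sst (chr16:23890931-23891230, minus strand): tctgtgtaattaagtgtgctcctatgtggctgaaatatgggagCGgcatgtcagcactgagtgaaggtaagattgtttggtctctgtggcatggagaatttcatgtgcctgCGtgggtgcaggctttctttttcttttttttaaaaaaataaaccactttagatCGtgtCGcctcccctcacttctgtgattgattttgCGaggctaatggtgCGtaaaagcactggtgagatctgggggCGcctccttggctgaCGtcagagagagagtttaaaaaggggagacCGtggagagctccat
Wnt8b (chr19:44567662-44567961, plus strand): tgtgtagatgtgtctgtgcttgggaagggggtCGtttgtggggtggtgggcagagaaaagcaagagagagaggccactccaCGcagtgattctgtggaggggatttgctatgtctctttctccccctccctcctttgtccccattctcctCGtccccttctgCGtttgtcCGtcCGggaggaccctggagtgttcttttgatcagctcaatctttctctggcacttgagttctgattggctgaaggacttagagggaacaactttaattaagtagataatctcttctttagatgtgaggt
Olfr1505 (chr19:13993132-13993431, plus strand): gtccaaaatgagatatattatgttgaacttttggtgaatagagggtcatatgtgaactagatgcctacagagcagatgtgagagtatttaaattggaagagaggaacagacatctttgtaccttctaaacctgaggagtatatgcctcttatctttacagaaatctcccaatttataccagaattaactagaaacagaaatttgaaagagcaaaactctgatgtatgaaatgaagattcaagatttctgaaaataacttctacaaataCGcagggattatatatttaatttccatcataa

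Calb1, which encodes the calcium-binding protein calbindin, carried all 4 marks, and its 300 bases hold 7 CG. Rps21, a ribosomal protein gene, carried H3K4me3, H3K27ac and H3K4me1 without H3K27me3 and has 17. Tbx20, a T-box factor of heart development, carried H3K4me3, H3K4me1 and H3K27me3 without H3K27ac and has 24. Sst, the interneuron neuropeptide somatostatin, carried H3K4me3 and H3K27me3 and has 9. Wnt8b, a WNT ligand of the dorsal midline, carried H3K27me3 alone and has 6, and Olfr1505, an olfactory receptor gene, carried no mark and has 1. The median number of CG in these 300 bases was 19 in promoters with all 4 marks, 19 in those with the 3 marks other than H3K27me3, 16 in those with the 3 marks other than H3K27ac, 6 in those with H3K27me3 alone and 2 in those without a mark, against 11 over all promoters. The printed stretches are shorter than the windows they were chosen on and depart from these medians, most of all Calb1 with 7, so their order is not that of the classes.

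Together the 4 marks covered 114 Mb, which is 4.63% of the 2472 Mb of the 19 chromosomes. Of the covered bases 46.8% carried 1 mark, 31.2% carried 2, 20% carried 3 and 2.08% carried all 4. H3K4me1 alone was the longest combination of the deposited regions, with 24.2 Mb or 21.1% of the union. When every mark was cut to its strongest 25.4 Mb, the length of H3K27me3, H3K27me3 alone was longest with 21962 kb and H3K4me1 alone had 9643 kb. In the deposited regions H3K4me1 alone was followed by H3K4me3, H3K27ac and H3K4me1 together with 19.2 Mb. H3K27ac with H3K4me1 had 18.5 Mb there and H3K27me3 alone 16.8 Mb. These 4 combinations differ in place. H3K27ac with H3K4me1, the usual pair of active enhancers, lay away from genes' starts, with a median distance of 39.8 kb to the nearest TSS and 5.67% of its length in promoter windows. H3K4me1 alone, found at enhancers not in use, was like it, with 34.9 kb and 10.2%. The 3 marks together had 55.4% of their length in promoter windows, which make up 5.32% of the genome and 34.7% of the union.

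**Figure D1:**
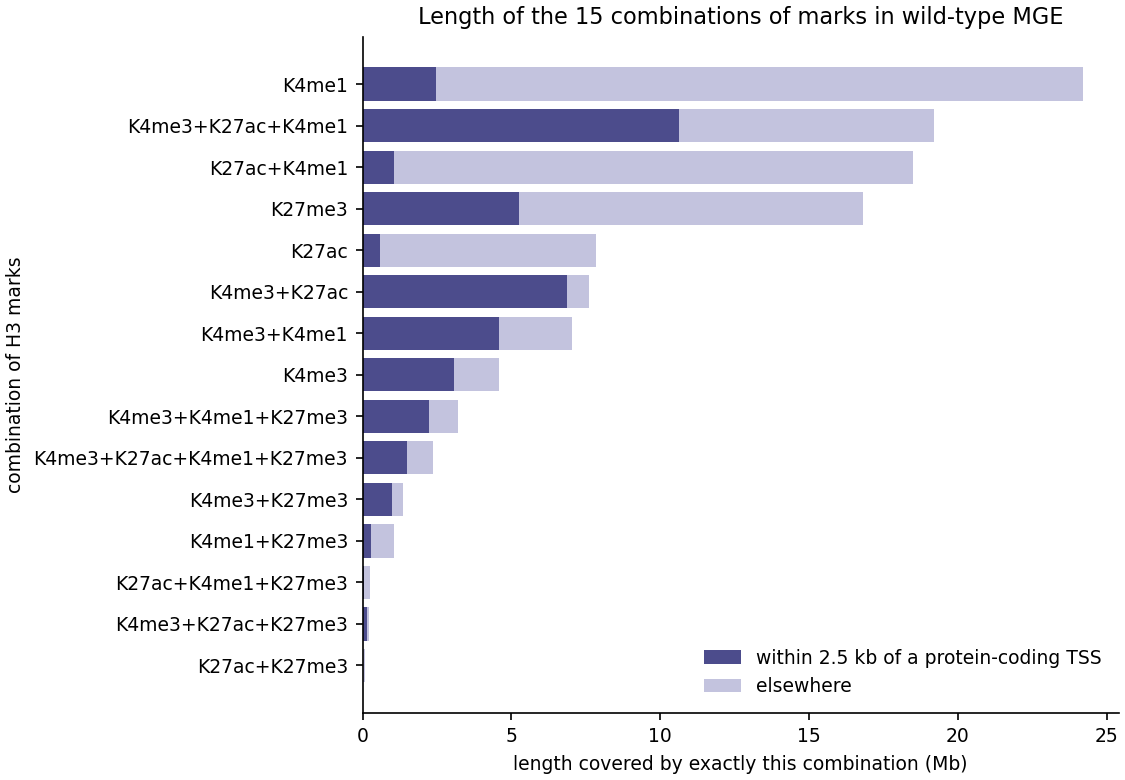
Bars give the length in Mb covered by exactly each of the 15 combinations, divided into the part within 2.5 kb of a protein-coding TSS (dark) and the part elsewhere (pale). H3K4me1 alone is longest in the deposited regions at 24.2 Mb, nearly all of it pale, while most of H3K4me3 with H3K27ac (7.59 Mb) is dark.

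The core of promoters was the pair H3K4me3 and H3K27ac without H3K4me1. It covered 7.59 Mb, of which 90.3% lay in promoter windows at a median of 0.323 kb from a TSS, and it had the highest GC content (62.5%) and CpG density (80.8 per kb) of the 15 combinations. Bases with no mark had 40.2% GC and 7.5 CpG per kb. Of the edges of this pair, 58.3% bordered on H3K4me3, H3K27ac and H3K4me1 together and 34.9% on H3K4me3 alone. Its longest stretch, 5193 bases at chr13:83867473-83872665, lies 203 kb from the nearest protein-coding TSS, that of Mef2c. It ends before the domain that holds the microRNA gene Mir9-2, described below, which starts at base 83874225. The next longest, 4326 bases, covers a TSS of Sox4, which encodes an SRY-box factor of young neurons. H3K4me3, H3K27ac and H3K4me1 together ran longest near Mn1 (9676 bases), Bcl11b (8771 bases) and Myo10 (8105 bases). Bcl11b encodes a zinc finger factor of striatal neurons and deep cortical neurons.

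Of the 6 pairs of marks, H3K27ac and H3K27me3 shared the fewest bases, 2.9 Mb. This is 11.4% of the length of H3K27me3 and 5.18% of that of H3K27ac. For scale, H3K27ac covered 2.27% of the genome and H3K27me3 1.03%, so each took up a larger share of the other than of the genome. H3K4me3 shared 7.17 Mb with H3K27me3 (28.3% of H3K27me3) and H3K4me1 shared 6.88 Mb (27.1%). By contrast H3K27ac shared 72% of its length with H3K4me1 and 52.4% with H3K4me3. Bases with H3K27ac and H3K27me3 and nothing else were the rarest combination, 70.3 kb in all or 0.0615% of the union. H3K27ac met H3K27me3 mostly where H3K4me3 and H3K4me1 lay as well, since all 4 marks together covered 2.38 Mb of the 2.9 Mb.

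The 4-mark bases formed 4792 stretches with a median of 371 bases, and 62.6% of their length lay in promoter windows. Of their edges 41.4% bordered on H3K4me3, H3K4me1 and H3K27me3, where acetylation ended, and 38.3% on H3K4me3, H3K27ac and H3K4me1, where H3K27me3 ended. The summits of the marks inside 4-mark bases were not alike in strength within each list, by the authors' fold enrichment over input. H3K4me3 summits there had a median fold of 22, against 26.6 in H3K4me3 with H3K27ac and 6.59 in H3K4me3 alone. H3K27ac summits there had 4.59, against 7.69 with H3K4me3 and 3.56 alone. H3K27me3 summits there had 4.67, as in H3K27me3 alone, against 6.62 where H3K4me3 and H3K4me1 lay without H3K27ac.

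At promoters most of the 15 combinations were rare in the deposited regions. The 3 marks H3K4me3, H3K27ac and H3K4me1 without H3K27me3, called the acetylated class here, held 20017 of 44018 windows, or 45.5% (exact 95% interval 45 to 45.9%). No mark was listed in 13151 windows (29.9%, 29.4 to 30.3%). All 4 marks, the 4-mark class, lay in 5238 windows (11.9%, 11.6 to 12.2%). H3K4me3, H3K4me1 and H3K27me3 without H3K27ac, the bivalent class without acetylation, lay in 2213 windows (5.03%, 4.83 to 5.24%). These 4 classes held 92.3% of all windows. Many windows share bases: 17623 overlapped the window of another TSS of the same gene. Intervals on shares of windows, here and below, take windows as independent and are too narrow to that extent. H3K27me3 alone lay in 433 windows and H3K4me3 with H3K27me3 alone in 342, and H3K27ac with H3K27me3 and no other mark lay in 1. These numbers depend on how much of each mark is called. With every mark cut to equal covered length, windows without a mark were the commonest (16714), the acetylated class held 7395, H3K4me3 with H3K27ac 6402, H3K27me3 alone 4201 and the 4-mark class 905. Over the chromosomes the share of the 4-mark class ran between 9.93% on chromosome 7 and 15.4% on chromosome 18, and that of the acetylated class between 37% on chromosome 14 and 50.9% on chromosome 5.

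**Figure D2:**
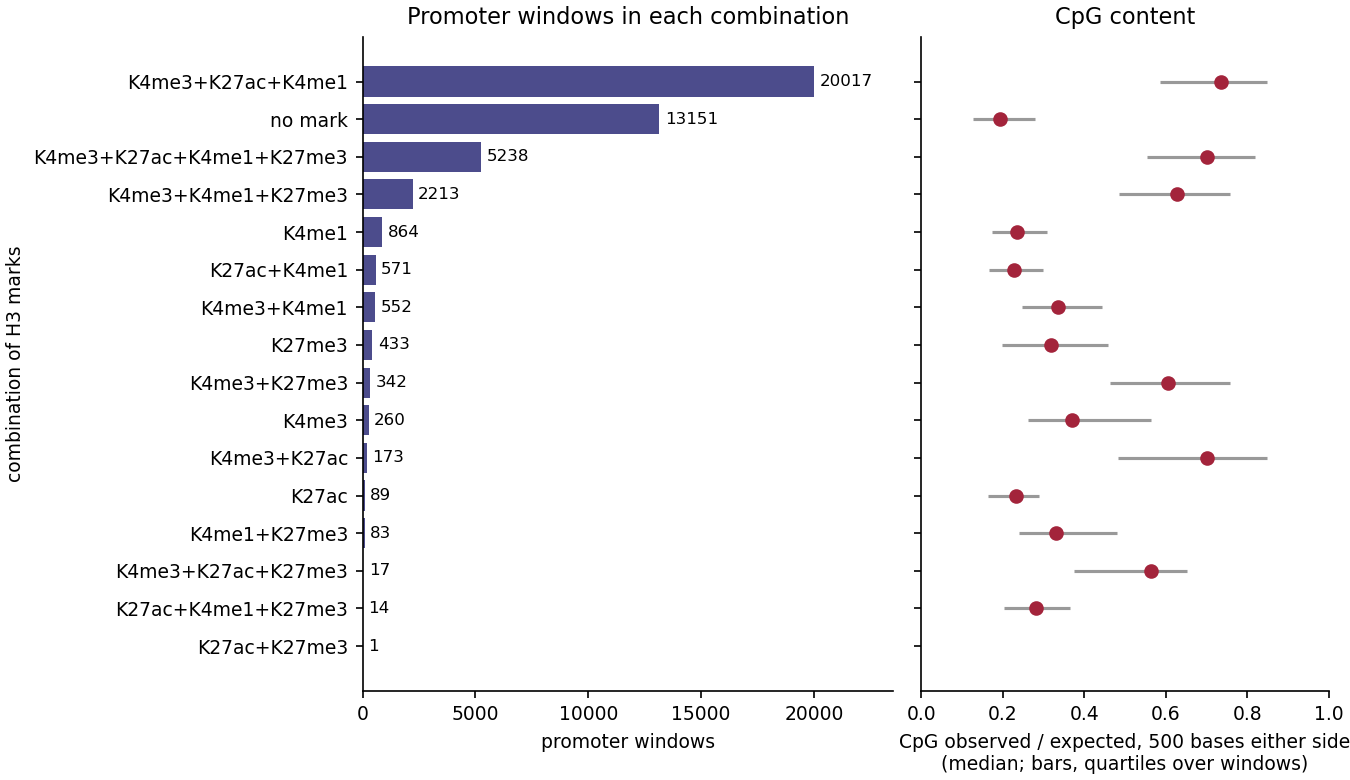
The left panel gives the number of promoter windows in each combination of marks. The right panel gives the median CpG observed over expected within 500 bases of the TSS, with quartiles over windows as bars, for combinations with at least 14 windows. Every class with over 500 windows that holds both H3K4me3 and either H3K27ac or H3K27me3 has a median between 0.627 and 0.736, and windows without a mark have 0.193.

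The classes differed in CpG content and in the genes behind them. The ratio of observed to expected CpG, which is near 1 in unmethylated CpG islands and low in the bulk genome, had a median of 0.701 (quartiles 0.555 and 0.819) in the 4-mark class, 0.736 in the acetylated class and 0.627 in the bivalent class without acetylation. H3K27me3 alone had 0.319 and windows without a mark had 0.193 (quartiles 0.127 and 0.28). The median gene of the 4-mark class was 36.5 kb long, against 22.3 kb in the acetylated class. The median was 21 kb in the bivalent class without acetylation and 4.92 kb among genes without a mark. A gene takes the marks of all its windows, so a gene with more TSSs can collect more marks. The median number of TSSs was 2 in the 4-mark and acetylated classes. It was 1 in the bivalent class without acetylation and among genes without a mark. The part of TSS number in the lengths was not tested.

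Around the TSS the arrangement of the marks differed between classes. In the acetylated class H3K4me3 covered 92.9% of the start sites themselves and H3K27ac 81.6%, whereas H3K4me1 covered 18.6% there and 62.2% at 1000 bases downstream. The 4-mark class had the same trough of H3K4me1 but a shallower one, 41.6% at the start site. H3K27me3 in this class covered 28.3% of start sites and 52.6% of positions 1000 bases downstream, so it lay more on the flanks than on the start. In the bivalent class without acetylation H3K27me3 covered 72.6% of start sites and 87.4% of positions 500 bases downstream. H3K4me3 was narrower there, with 80.8% at the start site and 34.3% at 1000 bases downstream. H3K4me1 had no such trough in this class, with 13.2% at 1000 bases upstream, 48.7% at the start site and 24.7% at 1000 bases downstream. Where H3K27me3 was alone it was spread more evenly, with 34.2% at 1700 bases upstream, 49% at 300 bases upstream, 45.5% at the start and 36.5% at 2000 bases downstream.

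**Figure D3:**
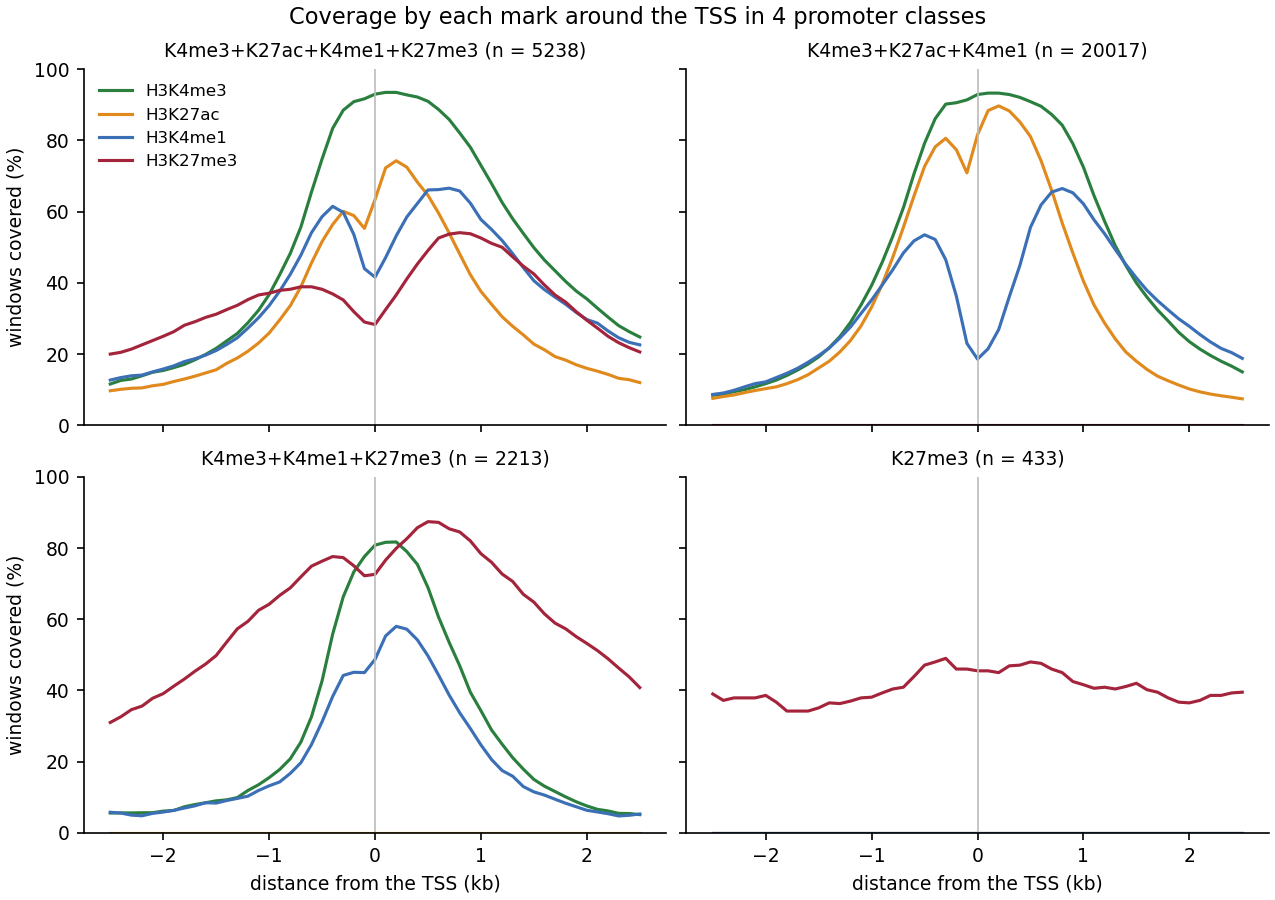
Each panel gives a promoter class, with the distance from the TSS in kb on the horizontal axis and the percentage of windows covered by each mark on the vertical axis. H3K4me1 dips at the TSS in the upper panels. H3K27me3 dips near the TSS in the 4-mark class (28.3% at the TSS). It also dips, at a higher level, in the bivalent class without acetylation (77.6% at 400 bases upstream, 72.6% at the TSS, 87.4% at 500 bases downstream).

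A window can hold marks on different bases, so the shared bases were counted too. Of 7810 windows with H3K4me3 and H3K27me3, 7315 had both on at least 1 base (93.7%, exact 95% interval 93.1 to 94.2%), with a median of 966 shared bases. Of 5270 windows with H3K27ac and H3K27me3, 4266 had both on a base (80.9%, 79.9 to 82%), with a median of 411 shared bases. Of the 5238 windows of the 4-mark class 79.5% had all 4 marks on at least 1 base, and the median over the class was 390 such bases. At the level of genes, over the windows of all TSSs of a gene, 2842 genes (13.4%) were in the 4-mark class, 9233 (43.4%) in the acetylated class, 1207 (5.67%) in the bivalent class without acetylation, 195 (0.917%) in H3K27me3 alone and 6616 (31.1%) without a mark. These shares of all genes are the background for each list below.

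The other combinations held few genes. H3K4me1 alone marked 283 genes (1.33%) and H3K4me1 with H3K4me3 234 (1.1%). H3K27ac with H3K4me1, the enhancer pair, marked 162 (0.761%), H3K4me3 alone 151 (0.71%), H3K4me3 with H3K27ac 86 (0.404%) and H3K27ac alone 31 (0.146%). H3K4me3 with H3K27me3 marked 185 (0.87%), and H3K4me1 with H3K27me3 35 (0.165%). The combinations that hold H3K27ac and H3K27me3 without 1 or both of the methylated forms of H3K4 were rarest. H3K27ac, H3K4me1 and H3K27me3 marked 9 genes (0.0423%), among them Sox10. H3K4me3, H3K27ac and H3K27me3 marked 5 (0.0235%), among them Pou3f3, Parp12, Ppp1r14a and Lhcgr, and H3K27ac with H3K27me3 marked 1 (0.0047%), Pi16. Pou3f3 encodes a POU factor of forebrain progenitors. H3K4me3 and H3K27me3 lay together at 4239 genes (19.9%), whatever the other marks, and of these the 2842 with all 4 marks outnumbered the 1207 with H3K4me1 and no H3K27ac and the 185 with neither.

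Transcription factors of the MGE and ventral forebrain were the most often 4-marked of 20 lists of genes. All 4 marks lay in the windows of 27 of 30 factors, against 13.4% of all genes. In 24 of the 30 all 4 lay on the same base, against 10.2% of all genes. Within the 4-mark class this was so of 24 of the 27 factors, against 76.6% of all genes of the class. H3K4me3 and H3K27me3 both lay at 29 of the 30, against 19.9% of all genes. The median factor had 72% of its window under H3K27ac and 87.1% under H3K27me3, against 11.7% and 0 over all genes. Nkx2-1, the homeodomain factor that sets MGE identity, had H3K4me3 on 80.7% of its window, H3K27ac on 91.5%, H3K4me1 on 59.3% and H3K27me3 on 80.5%, with all 4 on 1.94 of 5 kb. Lhx6, a LIM homeodomain factor of MGE-derived interneurons, had H3K27ac on 86.4% and H3K27me3 on 95.8%, and all 4 on 2.35 of 6.35 kb. Lhx8, a LIM homeodomain factor of cholinergic neurons, had 87.2% and 92.1% for the same pair and all 4 on 3.35 of 7.02 kb. In all 3 genes acetylation and H3K27me3 both covered most of the window.

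The Dlx genes, homeodomain factors of all GABAergic forebrain neurons, were covered in the same way. Dlx1 had H3K27ac on 100% and H3K27me3 on 86% of its window, with all 4 marks on 5.06 kb. Dlx2 had 80.9% and 55.5%, Dlx5 had 72.8% and 81.6%, and Dlx6 had 92.5% and 81.5%. Near Dlx5 lies the longest stretch with H3K4me3, H3K27ac and H3K27me3 but no H3K4me1, 3112 bases at 52 bases from a TSS, and Dlx6 held 3.24 kb of that combination in its window. Olig2, a basic helix-loop-helix factor of MGE progenitors and oligodendrocyte precursors, had H3K27ac on 100% and H3K27me3 on 98.4%, with all 4 marks on 4.09 of 5 kb. Among the factors with fewest shared bases was Gbx2, a homeodomain factor, with H3K27me3 on 100% of its window and H3K27ac on 5.04%.

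Nkx2-2 and Olig1, also of this list, were outside the 4-mark class. Nkx2-2, a homeodomain factor of the most ventral neural tube, had H3K27me3 on 97.6% of its window and no H3K27ac, and Olig1, the neighbour of Olig2, had 100% and none.

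**Figure D4:**
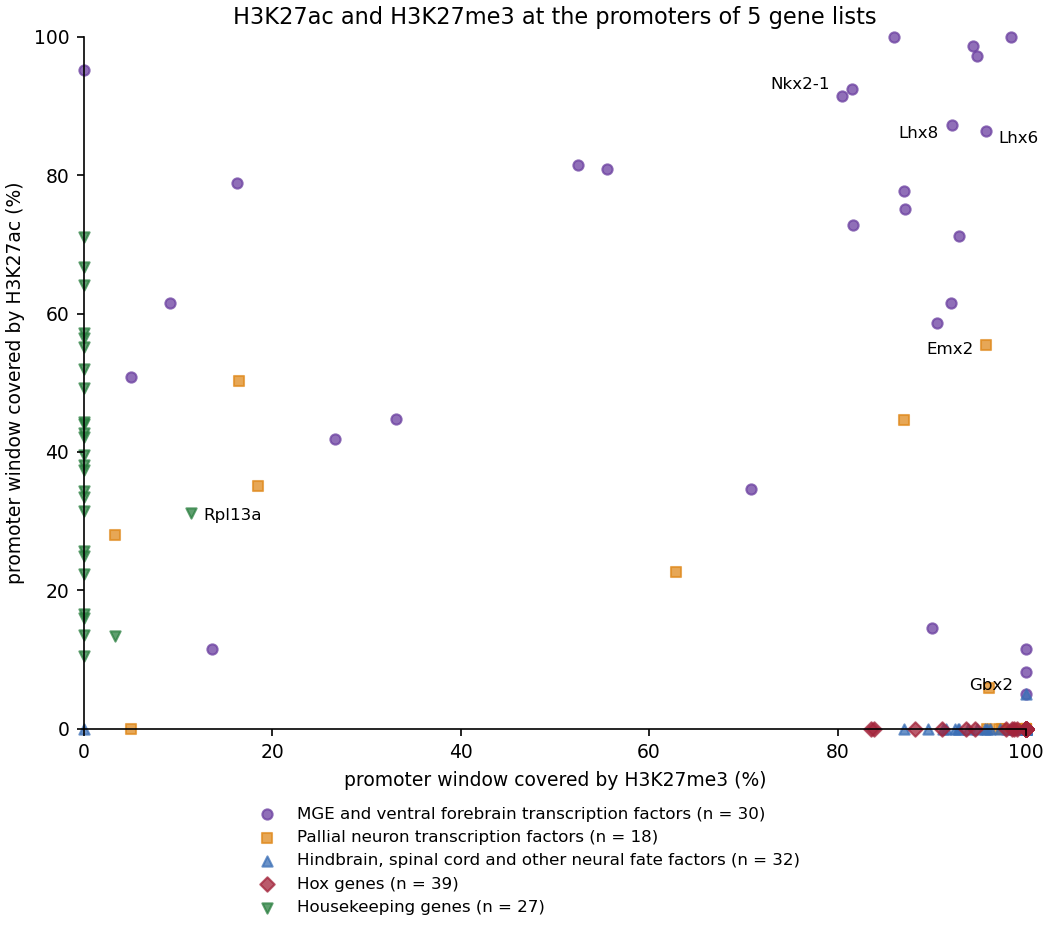
Each point is a gene, placed by the percentage of its promoter window under H3K27me3 (horizontal) and under H3K27ac (vertical), for 5 gene lists. Of 30 factors of the MGE and ventral forebrain, 16 lie in the upper right, above 50% for both marks, with Lhx6 at 95.8% and 86.4%; Hox genes lie on the horizontal axis and housekeeping genes on or near the vertical axis.

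How far the 2 marks that exclude each other on a tail both cover a promoter was set out at 50% of the window, a value chosen after the data were seen. Of the 2842 genes in the 4-mark class 81 (2.85%) had at least 50% of their window under H3K27ac and at least 50% under H3K27me3, while 2042 (71.9%) had less than 50% of each. Of the 27 factors of the MGE and ventral forebrain in the class 16 were among the 81, as were 7 of 20 factors of the lateral and caudal ganglionic eminence, 7 of 14 progenitor and cell cycle genes and 5 of 15 effectors of GABAergic neurons. Of 11 pan-neuronal genes 1 was, and of 9 SHH pathway genes none were. Wide coverage by both marks was thus found in 59.3% of the MGE and ventral forebrain factors of the class, beside 2.85% of the class as a whole.

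Factors of the lateral and caudal ganglionic eminence, the neighbours of the MGE, were also mostly in the 4-mark class, 20 of 24 (background 13.4%). Their median coverage was 39.9% for H3K27ac and 47.6% for H3K27me3. Effector genes of GABAergic neurons were in the 4-mark class in 15 of 26 cases (background 13.4%). Gad2, which makes GABA from glutamate, had H3K27ac on 100% of its window and H3K27me3 on 96%, with all 4 marks on 3.02 of 5 kb. Gad1, the other GABA-making enzyme, had 56.1% and 53.7% of a window of 11.4 kb, and a 4-mark stretch of 4696 bases lay 1.09 kb from its TSS. Slc32a1, which loads GABA into vesicles, had 98.7% and 92.9%. Later markers of interneuron subtypes were not alike. Sst had H3K27me3 on 55% of its window and H3K4me3 on 21.4% with no H3K27ac or H3K4me1. Vip, a neuropeptide of interneurons from the caudal eminence, had no mark, and Th, the dopamine-making enzyme, had H3K27ac (29.1%) and H3K4me1 (31.2%) alone.

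**Figure D5:**
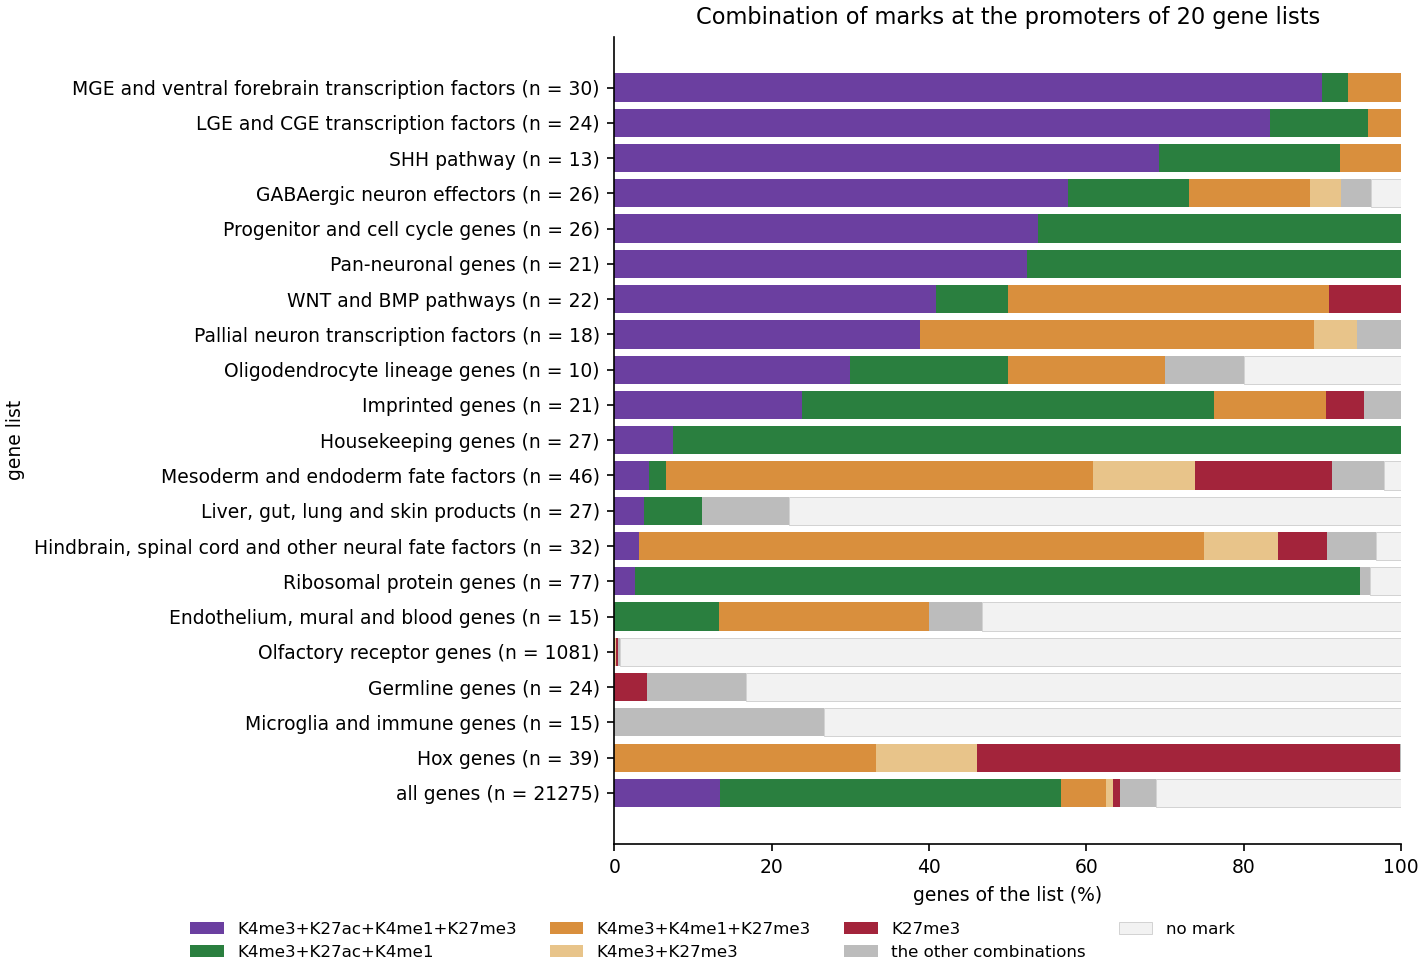
Bars give, for 20 gene lists and for all genes, the percentage of genes in each combination of marks at their promoters. The 4-mark class fills 90% of the MGE and ventral forebrain factors and 13.4% of all genes, H3K27me3 alone fills 53.8% of the Hox genes, and 99.3% of olfactory receptor genes have no mark.

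Progenitor and neuronal genes were divided between the 4-mark and acetylated classes, with none in another. Of 26 progenitor and cell cycle genes 14 carried all 4 marks and 12 the acetylated set (background 43.4%). Of 21 pan-neuronal genes 11 and 10 did. Their median H3K27me3 coverage was low, 5.69% and 6.18% of the window. Tubb3, a neuronal tubulin, had H3K27ac on 97% of its window and no H3K27me3. Hes1, a Notch target of progenitors, had 80.8% and 53.7%.

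The SHH pathway, which patterns the ventral forebrain, had 9 of 13 genes in the 4-mark class (background 13.4%). The ligand Shh had H3K27me3 on 93.4% of its window and H3K27ac on 44.8%. Gli1, a transcription factor and target of the pathway, had 42.4% and 41.2%. Smo, the signalling receptor, had H3K27ac on 57.4% and no H3K27me3. The WNT and BMP pathways, which pattern the dorsal forebrain, were divided. Of their 22 genes 9 were in the 4-mark class (background 13.4%) and 9 in the bivalent class without acetylation (background 5.67%). Wnt7b, a WNT ligand, carried all 4 marks, with H3K27me3 on 80.1% and H3K27ac on 28.2%, whereas Wnt8b had H3K27me3 alone on 86.9%.

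Factors of other brain regions were often in the bivalent class without acetylation. Of 18 pallial neuron factors, which act in the dorsal forebrain, 9 were in the bivalent class without acetylation (background 5.67%) and 7 in the 4-mark class. Emx1, a homeodomain factor of the pallium, had H3K27me3 on 95.9% of its window, H3K4me3 on 43.1% and no H3K27ac. Neurog2, a proneural factor of cortical progenitors, had 99.5%, 51.2% and none. Tbr1, a T-box factor of deep cortical neurons, had 97.1%, 25.2% and none. Emx2 differed from Emx1, with H3K27ac on 55.4% beside H3K27me3 on 95.8%. Of 32 factors of hindbrain, spinal cord and other neural fates 23 were in the bivalent class without acetylation, and Gbx2 was the single one with H3K27ac. Their median H3K27me3 coverage was 98.7%.

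Factors of mesoderm and endoderm fates were similar but had less H3K4me1. Of 46 factors 25 were in the bivalent class without acetylation and 8 in H3K27me3 alone (background 0.917%), and 6 in H3K4me3 with H3K27me3 (background 0.87%). Their median coverage was 20.4% for H3K4me3, 6.63% for H3K4me1 and 96.9% for H3K27me3. For the same marks the factors of hindbrain, spinal cord and other neural fates had 23.3%, 13.7% and 98.7%. T, the mesoderm factor Brachyury, had H3K27me3 on 100% of its window and nothing else. Tbx20 had H3K27me3 on 100%, H3K4me3 on 24.2% and H3K4me1 on 20.1%.

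Hox genes, which set position along the body behind the forebrain, all carried H3K27me3 (39 of 39, against 21.1% of all genes) and none carried H3K27ac (0 of 39, against 58.1%). H3K27me3 was alone at 21, together with H3K4me3 and H3K4me1 at 13 and with H3K4me3 at 5. Hoxa2, a hindbrain gene, had H3K27me3 on 100% of 5 kb. The longest stretch of H3K27me3 alone was 46257 bases over Hoxc4. The 39 genes lie in 4 clusters and share regions, so they are not 39 separate cases.

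Genes used in every cell were in the acetylated class. It held 25 of 27 housekeeping genes and 71 of 77 ribosomal protein genes, against 43.4% of all genes. Actb, cytoplasmic actin, had H3K4me3 on 76% of its window, H3K27ac on 66.7%, H3K4me1 on 50.6% and no H3K27me3. Genes of some lists from other tissues mostly had no mark. This was so of 1073 of 1081 olfactory receptor genes and 20 of 24 germline genes, against 31.1% of all genes. It was also so of 21 of 27 genes of liver, gut, lung and skin products. Of the mesoderm and endoderm factors above, by contrast, 1 of 46 had no mark. Imprinted genes were in the acetylated class in 11 of 21 cases (52.4%, against 43.4% of all genes). They were in the 4-mark class in 5 (23.8%, against 13.4% of all genes). Of 10 oligodendrocyte lineage genes, most used after this stage, 3 carried all 4 marks, against 13.4% of all genes. Sox10, their SRY-box factor, had H3K27me3 on 72.9% of its window with H3K27ac on 7.01%, on separate bases.

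The lists of other cell types bear on what the dissected tissue held. No mark was listed at 11 of 15 microglia and immune genes, against 31.1% of all genes. The same held for 8 of 15 genes of endothelium, mural cells and blood. H3K27ac lay at 1 immune gene, Cd68, and at 2 vascular and blood genes, among them Pdgfrb, against 58.1% of all genes. Cd68, a phagocyte gene, had it on 4.54% of its window, and Pecam1, Cdh5 and the globin genes Hba-a1 and Hbb-y had no mark. Kdr, Cldn5, Flt1 and Foxf2, 4 of the 15 vascular and blood genes, were in the bivalent class without acetylation, against 5.67% of all genes. Of the immune genes Csf1r and C1qb had H3K4me1 alone, and C1qa had H3K4me3 with H3K4me1. H3K27ac lay at 7 of 18 pallial factors but not at Emx1, Tbr1, Neurog2 or Neurod6. The part of such cells in the results was not tested.

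Domains, meaning unbroken runs of bases with at least 1 mark, numbered 104168. Among the 20 longest, 18 had at least 89% of their length under H3K27me3 and 13 had no H3K27ac. The longest, 86.6 kb at chr15:102789796-102876367, covers Hoxc4 to Hoxc10 and is 100% H3K27me3. Others covered Hoxb13 (46.3 kb), Pax3 (38.3 kb), Tbx3 (37.6 kb), Pax2 (33 kb) and Gata4 (31.4 kb), which encode fate factors of other tissues. The domain of Lhx6, 24.9 kb at chr2:35941644-35966527, differed from these, with H3K27me3 on 89.6%, H3K27ac on 71.2% and all 4 marks on 50.4% of its length. Among the 20 longest, 3 domains had H3K27ac on over 50% of their length, that of Lhx6 and 2 others that have no protein-coding TSS.

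Those 2 domains hold genes of miR-9, a brain microRNA that acts in neural progenitors and young neurons. MicroRNA hairpins were placed by matching their RefSeq sequences to the mm9 genome after the domains had been seen, and 907 of 919 hairpins matched 1 place each. No mark lay within 2.5 kb of 57.9% of the 907. Of the 7 hairpins inside the 20 longest domains, some belong to the Hox clusters and some to miR-9. The mature sequences are given with the seed, bases 2 to 8, in capitals, because the seed groups them into families.
miR-9-5p: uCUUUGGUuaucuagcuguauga
miR-10a-5p: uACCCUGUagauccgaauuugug
miR-10b-5p: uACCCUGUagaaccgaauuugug
miR-196a-5p: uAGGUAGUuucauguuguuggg
miR-196b-5p: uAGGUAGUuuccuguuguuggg

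miR-10a and miR-10b share a seed, as do miR-196a and miR-196b, and all 4 lie in Hox clusters. Mir10a and Mir10b had H3K27me3 on 98.6% and 100% of the window around the hairpin and no H3K27ac. Mir196a-2, in the longest domain, had 100%, Mir196a-1 97.3% and Mir196b 95.8%, each with no other mark. The 3 genes of miR-9 differed from these in H3K27ac. In the window around the hairpin H3K27ac covered 100% at Mir9-1, 100% at Mir9-3 and 84% at Mir9-2. H3K27me3 covered 86% of the window of Mir9-1, 6.11% of that of Mir9-3 and 10.3% of that of Mir9-2. Mir9-1, at chr3:88019520-88019608, lies in a domain of 47.6 kb with H3K27ac on 99.8%, H3K4me1 on 89.2%, H3K4me3 on 57.9%, H3K27me3 on 29.8% and all 4 marks on 25.4% of its length. Mir9-3, at chr7:86650150-86650239, lies in one of 33.7 kb with H3K27ac on 100% and H3K27me3 on 7.76%. Mir9-2, at chr13:83878419-83878490, lies in one of 8.31 kb with H3K4me3 on 100%, H3K27ac on 65.2% and H3K27me3 on 6.27%. The microRNA genes of the Hox clusters thus carried H3K27me3 without H3K27ac, as the Hox genes did, and the 3 miR-9 genes carried H3K4me3 and H3K27ac over their hairpins. Mir9-1 and Mir9-2 carried H3K4me1 and H3K27me3 on the hairpin as well, that is all 4 marks.

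Some of the longest 4-mark stretches lay at 1 locus. Of the 15 longest, 7 were nearest to Sfi1, a centrosome gene, among them the longest of all, 8764 bases at chr11:3054781-3063544. All 7 also held peaks of both NKX2-1 and LHX6, as did 1 other of the 15, nearest to Pgk2. These places were thus listed for all 6 antibodies and in both strains. Stretches with peaks of both factors, 92 of the 4792, also held more repeated sequence. Of the 32-base words in them 22.2% occur elsewhere in the mm9 genome, against 0.545% in the other 4700 stretches. In the 7 stretches at Sfi1 the share was between 5.69% and 19.9%, at Pgk2 14.5%, and at Gad1 0%. Copies that the assembly lacks do not enter these shares, and the part of repeated sequence in the calls was not tested. With that limit, Sfi1 also led the genes by 4-mark bases in their windows, with 10.2 of 11.1 kb, ahead of Zic4 (8.05 kb), Sox6 (6.25 kb), Six3 (5.96 kb) and Nr2e1 (5.87 kb), which all encode transcription factors of the forebrain. Without the stretches that hold peaks of both factors the 4-mark length was 2278 kb, against 2384 kb with them. Without peaks of both factors the longest stretches were 6291 bases at 9.81 kb from Sox2, a progenitor factor, 4696 bases near Gad1, 4304 bases at 4.7 kb from Lhx6 and 4170 bases at 0.276 kb from Olig2.

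Peaks of the factors of the MGE fell on the combinations unevenly. Of 5613 NKX2-1 peak summits 27.2% lay on H3K4me3, H3K27ac and H3K4me1 together, 15.1% on H3K4me3 with H3K27ac, 10.9% on H3K27ac with H3K4me1 and 18.5% (exact 95% interval 17.5 to 19.6%) on bases with no mark. By density H3K4me3 with H3K27ac was highest at 111 summits per Mb, the 4-mark bases had 38.6 (92 summits) and unmarked bases 0.441, against 2.27 over all bases. Of 1589 LHX6 summits 48.1% (45.6 to 50.6%) lay on unmarked bases, 11.8% on H3K27me3 alone and 9.88% on H3K4me3, H3K27ac and H3K4me1 together. Their density was highest on H3K4me3 with H3K27me3 (31.3 per Mb, from 43 summits), with 26 on the 4-mark bases, against 0.643 over all bases. The values on 4-mark bases rest on the places listed for both factors. Of the LHX6 summits there, 60 of 62 lay in the 92 stretches with peaks of both, and of the NKX2-1 summits 61 of 92. Without those stretches the density was 0.878 per Mb for LHX6, from 2 summits, and 13.6 for NKX2-1. Leaving out stretches by their factor peaks lowers these densities by construction, so the remainder is a lower value and not a corrected one. The factor libraries came from another strain and a wider dissection and differ in the number of peaks called, which cannot be told apart from a difference between the factors.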

How the data were processed

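The data are peak lists of wild-type MGE, 1 library per mark, called by the authors with an input library as control. The submitters' processing notes name BWA 0.6.2, MACS2 2.1.0, CASAVA 1.8.2 and, for demultiplexing, bcl2fastq 1.8.4, with build mm9. The lists come from MACS 2.1.0.20140616, per the file headers, which give a p-value limit of 1.0e-05, a tag extension of 250 bases, 1 tag per position, split summits, and neither a local background nor a fragment model. The deposited fold enrichment (the authors' ratio at the summit to its control) and the deposited −log10 p-value were used. Folds were compared only within a list, and the pileup, a signal in extended tags per the file headers, was not analysed. Depth is the number of tags left without duplicates, per the file headers, given with the marks above. Reads carry no molecular identifiers. Intervals cover counting error only, because each mark has 1 library.

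Rows for several summits of a region were joined. Each base of chromosomes 1 to 19 received the marks that cover it, and a promoter window received a mark that covers at least 1 of its bases. Chromosome X and other contigs were left out. TSSs are those of protein-coding transcripts in GENCODE vM1 on NCBIM37, and a gene takes the marks of all its windows. Repeated sequence is the share of 32-base words of a stretch that occur, on either strand, at more than 1 place of the genome. Coordinates are counted from 1. Tools were bedtools 2.31.1, pysam 0.24.0, scipy 1.17.1, numpy 2.4.6, pandas 2.3.3 and matplotlib 3.10.9 under Python 3.11.15. Shares have exact 95% intervals by the method of Clopper and Pearson, which takes the counted items as independent. With 1 library per mark no test between samples was possible and none was run. Checked on 60000 simulated bases, 200 simulated windows and 6 pairwise lengths from bedtools, the assignment had 0 mismatches.

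The members and the 20 gene lists were chosen with earlier results of these data known, and the counts are descriptions. Of the listed entries 14 had no match on these chromosomes. Genes named are the marker genes of the regions and cell types, up to 5 genes of a list per combination, 5 genes per combination with the most bases of it, and the longest stretches and domains. The microRNA hairpins, the 50% limit, the shared base of all 4 marks in the lists the factor peaks in the longest stretches and the repeated words were added after the data were seen. Alternatives were a −log10 p of at least 10, equal covered length for every mark, wider regions, another overlap or window, 1 TSS per gene and chromosome X. Mutant, input and IgG libraries were not used here, and some genes are not reported here.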

Additional observations from a re-analysis of the deposited data

How the results depend on the processing

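Of 172 values recomputed under another setting 101 were within 1.5 times the value reported. With every mark cut to equal covered length (25.4 Mb, that of H3K27me3) the union was 69704 kb, H3K4me1 alone 9643 kb, H3K27ac with H3K4me1 7448 kb, the 3 marks H3K4me3, H3K27ac and H3K4me1 3825 kb, H3K4me3 with H3K4me1 and H3K27me3 495 kb and all 4 marks 340 kb. The promoter windows were then 7395 in the acetylated class, 706 in the bivalent class without acetylation and 905 in the 4-mark class, while H3K4me3 with H3K27ac held 6402, H3K27me3 alone 4201, H3K4me3 alone 2037 and no mark 16714, so the order of the combinations, by length and by windows, depends on this choice. This limit takes H3K4me3 regions from a −log10 p of 141 upward and H3K27me3 regions from 5.11, so weaker regions of the other marks are left out by construction. With regions widened by 250 bases H3K4me1 alone covered 37257 kb, H3K27ac with H3K4me1 28200 kb, the 3 marks without H3K27me3 33295 kb, the 3 marks without H3K27ac 4881 kb and all 4 marks 4740 kb. At a −log10 p of at least 10 the 4-mark class held 3459 windows, and 15 of 46 mesoderm and endoderm factors were in the bivalent class without acetylation; the cause was not tested. With 1 TSS per gene the windows number 21410 by construction and the classes held 9178 (acetylated), 1217 (bivalent without acetylation), 2578 (4-mark) and 6983 (no mark), which are 42.9%, 5.68%, 12% and 32.6%. Of 18 recomputed list counts 17, and all 5 recomputed CpG medians, were within 1.5 times the value reported. The list counts were recomputed at 500 bases covered and at a −log10 p of at least 10. Those of the MGE and of the lateral and caudal eminence factors were also recomputed with all 4 marks on 1 base. No list was recomputed at equal covered length, so the counts do not bear on that setting. The CpG medians were recomputed only within 250 bases of the TSS. H3K4me3 with H3K27me3 on shared bases was found in 5819 windows at 500 shared bases or more and in 6110 at a −log10 p of at least 10. No paired analysis was possible because each mark has 1 library. Depth and the single library per mark limit all lengths: a base without a call may carry a mark too weak to be listed, and differences between marks in called length mix antibody, depth and biology, which cannot be told apart.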

Other observations

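Genes with the most bases of a combination in their windows also came from outside the lists described above. For H3K4me3 with H3K27ac these were Tcf4 (5.26 kb), Sox4 (4.94 kb), Bahcc1 (4.9 kb), Auts2 (4.87 kb) and Mll5 (4.66 kb). Tcf4 encodes an E protein of neural progenitors and neurons. For H3K4me3, H3K27ac and H3K4me1 they were Zmynd8 (11 kb), Zbtb20 (10.3 kb), Myo10 (9.51 kb), Fgfr2 (8.74 kb) and Gse1 (8.73 kb). Fgfr2 encodes a fibroblast growth factor receptor of progenitors, and Zmynd8 also led H3K27ac with H3K4me1, with 7.88 kb.

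For H3K4me3, H3K4me1 and H3K27me3 without H3K27ac the genes were Bdnf (4.49 kb), Hs3st3b1 (3.8 kb), Npr3 (3.75 kb), Cbln1 (3.62 kb) and Lhx9 (3.52 kb). As genes, Bdnf, Cbln1 and Lhx9 were in the 4-mark class, since H3K27ac lay on other bases of their windows. It covered 5.79% of the window of Bdnf and 24.4% of that of Cbln1. Bdnf encodes a neurotrophin that is switched on by activity in older neurons, and Cbln1 a synapse organiser of the cerebellum. For H3K4me3, H3K27ac and H3K27me3 without H3K4me1 they were Zic4 (4.71 kb), Slc32a1 (3.25 kb), Dlx6 (3.24 kb), Nr2f2 (3.15 kb) and Nr2f1 (2.81 kb), all of which act in ventral forebrain or interneurons. Windows of genes with many TSSs are longer and can hold more bases. A gene named for a combination can carry further marks on other bases of its windows.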
